A study of Mus musculus with 8 samples.

Results

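The neutrophil marker and granule genes were S100a8, S100a9, Csf3r, Csf3, Retnlg, Mmp8, Mmp9, Ly6g, Mpo and Elane. They were found by symbol in the deposited expression table, and all 10 were among its 54532 genes. Their mRNA was compared between 4 METTL3-HKD and 4 METTL3-Flox livers, all taken after 1 h of partial warm ischemia and 6 h of reperfusion (I/R). METTL3-HKD mice (METTL3 flox/-; Alb-iCre) were heterozygous for METTL3, an RNA methyltransferase, in cells in which the albumin promoter drives the iCre recombinase, which are hepatocytes. METTL3-Flox littermates (METTL3 flox/flox) carried the floxed allele of exon 4 without recombinase, and the age of these 8 mice was not given. No sham-operated liver was among the samples, so the values describe the difference between genotypes after I/R and not the response to I/R. The comparison asks whether genes of circulating, mature neutrophils and genes of their bone marrow precursors differed in the same way between these livers.

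Neutrophils are made in the bone marrow and enter injured tissue from the blood. Their granules are filled in stages. Promyelocytes transcribe the primary granule genes, such as myeloperoxidase and elastase, and stop doing so before the cell leaves the marrow. Myelocytes then transcribe the specific granule genes, and segmented cells carry mRNA of S100a8, S100a9, the chemokine receptor Cxcr2 and the G-CSF receptor. G-CSF, the product of Csf3, is the cytokine that drives the production and release of neutrophils and is made by stromal, endothelial and immune cells rather than by the neutrophils themselves. In a healthy liver, neutrophils are few, and after I/R they enter within hours.

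The sequence around the start site is shown for the genes on which the contrast turns, the mature-cell genes S100a8, S100a9 and Csf3r and the precursor genes Mpo and Elane. Each run holds 250 bases before and 50 bases after the start in RefSeq (GRCm38.p6), read 5′ to 3′ on the strand of the gene. Capitals mark matches on either strand to the C/EBP letters TTNNGNAAT, TTNNGNAAG, TGNNGNAAT or TGNNGNAAG, or to the PU box GAGGAA. C/EBP factors and PU.1 are transcription factors of the granulocyte lineage. The runs lie at chr3:90668821-90669120 on the plus strand (S100a8), chr3:90695672-90695971 on the minus strand (S100a9), chr4:126024409-126024708 on the plus strand (Csf3r), chr11:87793534-87793833 on the plus strand (Mpo) and chr10:79886062-79886361 on the plus strand (Elane).
S100a8: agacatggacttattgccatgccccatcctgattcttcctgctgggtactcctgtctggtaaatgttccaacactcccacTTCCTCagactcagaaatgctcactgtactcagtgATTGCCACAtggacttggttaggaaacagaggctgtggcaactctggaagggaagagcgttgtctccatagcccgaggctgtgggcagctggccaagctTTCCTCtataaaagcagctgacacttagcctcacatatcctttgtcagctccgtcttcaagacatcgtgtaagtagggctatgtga
S100a9: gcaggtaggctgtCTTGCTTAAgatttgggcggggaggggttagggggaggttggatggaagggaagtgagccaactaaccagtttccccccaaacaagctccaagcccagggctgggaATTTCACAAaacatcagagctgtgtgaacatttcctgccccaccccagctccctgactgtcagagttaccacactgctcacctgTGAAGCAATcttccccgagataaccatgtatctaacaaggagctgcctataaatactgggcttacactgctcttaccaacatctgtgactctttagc
Csf3r: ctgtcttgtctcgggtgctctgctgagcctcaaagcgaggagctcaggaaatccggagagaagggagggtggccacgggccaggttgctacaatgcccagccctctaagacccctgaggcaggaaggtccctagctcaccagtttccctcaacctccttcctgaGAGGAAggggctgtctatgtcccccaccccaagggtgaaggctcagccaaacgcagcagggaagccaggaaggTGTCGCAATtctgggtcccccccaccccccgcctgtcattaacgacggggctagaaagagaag
Mpo: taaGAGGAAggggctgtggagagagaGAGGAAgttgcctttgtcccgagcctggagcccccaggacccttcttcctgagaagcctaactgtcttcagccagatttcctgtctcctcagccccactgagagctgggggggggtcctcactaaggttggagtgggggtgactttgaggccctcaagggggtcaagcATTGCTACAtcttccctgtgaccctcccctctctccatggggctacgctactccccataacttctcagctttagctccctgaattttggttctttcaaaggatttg
Elane: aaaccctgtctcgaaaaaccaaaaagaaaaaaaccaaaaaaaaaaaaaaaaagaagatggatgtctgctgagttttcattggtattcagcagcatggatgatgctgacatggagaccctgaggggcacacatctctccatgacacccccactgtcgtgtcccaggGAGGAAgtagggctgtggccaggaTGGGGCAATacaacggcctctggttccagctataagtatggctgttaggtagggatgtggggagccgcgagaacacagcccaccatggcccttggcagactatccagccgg
S100a8 held 1 C/EBP match and 2 PU boxes, and S100a9 held 3 C/EBP matches and 0 PU boxes. Csf3r and Elane each held 1 match of either kind, and Mpo held 1 C/EBP match and 2 PU boxes. Both the mature-cell and the precursor genes thus held such letters. Of 32851 promoters searched in the same way, 45.4% held a C/EBP match and 28.3% held a PU box. Promoters of 8 of the 10 genes were in the table. Among those not printed, Retnlg held 2 overlapping C/EBP matches, Mmp8 held 1 PU box, and the windows of Ly6g held both.

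The deposited values were FPKM, the fragments of a gene divided by its length and by an effective library size. Reads on genes, rebuilt from the FPKM, numbered 15861245 to 18434488 per liver. The effective sizes were 18063236 to 20114825 in METTL3-HKD and 14210943 to 16158035 in METTL3-Flox livers, so they were not the reads on genes. Scaling to the reads on genes instead raised the median log2 change over all genes from −0.00 to 0.20, and turned the direction of none of the 9 genes tested. Mettl3, the targeted gene, had 1.17 to 1.56 FPKM in METTL3-HKD and 1.16 to 1.84 FPKM in METTL3-Flox livers, a log2 fold change of −0.16 (adjusted p = 0.556, limma), with overlapping groups. This value counts reads on the whole gene, exon 4 and the other exons together, in all cells of the liver. The hepatocyte marker Alb ranged from 15090 to 22088 FPKM over the 8 livers, so all carried the mRNA of liver tissue. METTL3-HKD liver 1 stood apart from the other METTL3-HKD livers in the mature-cell genes, whose fold changes are given with and without it. In bulk tissue, fewer or more cells of a type and less or more RNA per cell cannot be told apart.

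After I/R, mRNA of mature neutrophils was far more abundant in METTL3-HKD than in METTL3-Flox livers. The primary granule genes, which precursors transcribe, were not called higher, and which cells of the liver carried their mRNA was not tested. The mature-cell genes S100a8, S100a9, Csf3r, Retnlg, Mmp8 and Mmp9 rose, with log2 fold changes from 3.12 (Csf3r) to 4.79 (Retnlg), against a median of −0.00 over the 16645 genes tested. The mature-cell gene Ly6g and the ligand Csf3 were called higher too, but they passed the minimum for testing through their METTL3-HKD livers alone, so that only a difference could bring them into the test. Elane, the primary granule elastase, had a log2 fold change of −0.54 and did not pass the test, and Mpo was at or near 0 in every liver. In all, 8 of the 10 genes, or 6 without Ly6g and Csf3, were called higher and 0 lower, 1 was tested and not called, and 1 lay below the minimum of 0.1 FPKM for testing. Of all genes tested, 4.7% were called higher and 1.52% lower. A call required adjusted p below 0.05 together with a change of 1 or more in log2(FPKM + 0.1), from limma's moderated two-sided test, adjusted by Benjamini-Hochberg over the whole set of tested genes. The groups did not overlap, with METTL3-HKD on top, for the same 8 genes, or for 6 without Ly6g and Csf3. This was the case for 12.7% of all genes tested.

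**Figure D1:**
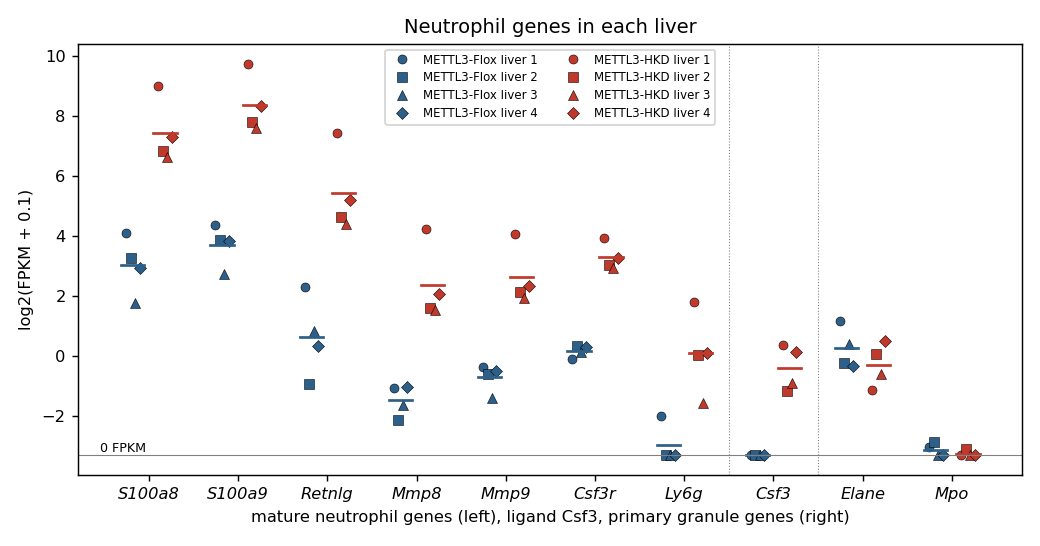
Level of each gene on the log2(FPKM + 0.1) scale (y axis) in the 4 METTL3-Flox livers (blue) and the 4 METTL3-HKD livers (red), with marker shapes for liver numbers and a bar for the mean of each group. The groups are separate for the 7 mature-cell genes on the left and for Csf3, and they overlap for Elane and Mpo on the right.

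S100a8 and S100a9 encode the subunits of calprotectin, the calcium- and zinc-binding protein that fills the cytosol of neutrophils. S100a8 (ENSMUSG00000056054, chr3:90668978-90670035, plus strand) had 519, 115, 99.6 and 158 FPKM in METTL3-HKD livers and 16.9, 9.54, 3.32 and 7.52 FPKM in METTL3-Flox livers, in the order of their numbers here and below. Its lowest METTL3-HKD liver thus lay well above its highest METTL3-Flox liver, and METTL3-HKD liver 1 exceeded the other METTL3-HKD livers by a wide margin. The mean was 223 ± 199 against 9.33 ± 5.70 FPKM (SD, n = 4 each), a log2 fold change of 4.44 (SE 0.594, adjusted p = 0.00414, limma). S100a9 (ENSMUSG00000056071, chr3:90692632-90695721, minus strand) had 867, 223, 195 and 326 FPKM in METTL3-HKD livers and 20.5, 14.5, 6.55 and 14.04 FPKM in METTL3-Flox livers. The groups did not overlap, and the livers kept the order they had for S100a8 within METTL3-HKD. The mean was 403 ± 315 against 13.9 ± 5.71 FPKM (SD, n = 4 each), a log2 fold change of 4.68 (SE 0.491, adjusted p = 0.00207, limma). These were the most abundant of the 10 genes in either group. Without METTL3-HKD liver 1, the ratio of means fell from 23.9 to 13.3 for S100a8 and from 29.0 to 17.9 for S100a9, with log2 fold changes of 3.92 and 4.22.

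The pair lies 22596 bases apart on chromosome 3 with no other listed gene between, and both genes have 3 exons in their first-numbered transcript. S100a9 exceeded S100a8 in every liver, by 1.67 to 2.06 times in METTL3-HKD and by 1.21 to 1.98 times in METTL3-Flox livers. The range of this ratio was narrow beside the difference in level of either subunit between genotypes. The mean difference in the log2 ratio was 0.24 (exact permutation test, two-sided, p = 0.229). Among the other S100 genes, 7 of 15 were tested and 2 were higher, beside 4.7% of all genes tested. They were S100a6 (log2 fold change 3.09, adjusted p = 0.00595, limma), a gene of many dividing and stromal cells, and S100g (2.45, adjusted p = 0.00378), which encodes the calcium-binding protein calbindin-D9k. S100a10, the most abundant of those not called, had 222 against 146 FPKM (adjusted p = 0.0729, limma).

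Retnlg, Mmp8, Mmp9, Csf3r and Ly6g are the other mature-cell genes. Retnlg (ENSMUSG00000022651, chr16:48872621-48874496, plus strand) encodes resistin-like gamma, a secreted protein of mouse bone marrow and mature neutrophils. It had 175, 24.6, 20.8 and 37.0 FPKM in METTL3-HKD livers and 4.87, 0.417, 1.66 and 1.15 FPKM in METTL3-Flox livers. Liver 1 was the highest in both groups, and the groups did not overlap. The log2 fold change was the largest of the 10 genes, at 4.79 (SE 0.796, adjusted p = 0.00836, limma), and it was 4.12 without METTL3-HKD liver 1, where the ratio of means went from 31.8 to 13.6. Its related genes Retn and Retnlb lay below the minimum for testing, and Retnla had 1.15 against 0.637 FPKM (adjusted p = 0.674, limma).

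Mmp8 and Mmp9 encode neutrophil collagenase and gelatinase B, the proteases of the specific and the gelatinase granules. Mmp8 (ENSMUSG00000005800, chr9:7558456-7568485, plus strand) had 18.9, 2.95, 2.79 and 4.04 FPKM in METTL3-HKD livers and 0.377, 0.128, 0.217 and 0.384 FPKM in METTL3-Flox livers. The log2 fold change was 3.83 (SE 0.574, adjusted p = 0.00595, limma) and 3.20 without METTL3-HKD liver 1, which alone held 921 of the 1357 reads of its group. Mmp9 (ENSMUSG00000017737, chr2:164940780-164955850, plus strand) had 16.7, 4.33, 3.71 and 4.99 FPKM in METTL3-HKD livers and 0.676, 0.560, 0.279 and 0.597 FPKM in METTL3-Flox livers. Apart from liver 1, the METTL3-HKD livers were close to each other in both genes, and all lay above METTL3-Flox. The log2 fold change of Mmp9 was 3.34 (SE 0.452, adjusted p = 0.00427, limma) and 2.86 without METTL3-HKD liver 1. The Mmp8 to Mmp9 ratio was 0.681 to 1.13 in METTL3-HKD and 0.228 to 0.778 in METTL3-Flox livers, which overlapped.

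Mmp8 lies in a cluster of 8 metalloproteinase genes on chromosome 9 (7272514 to 7699585), of which 5, Mmp10 included, were called higher. Its neighbours Mmp13, Mmp10, Mmp3 and Mmp12 are known mainly from stromal cells and macrophages, and all were called higher. The log2 fold changes of Mmp13, Mmp3 and Mmp12 were 6.86, 5.75 and 3.80, or 6.40, 5.41 and 3.68 without METTL3-HKD liver 1. Mmp10 had no read in METTL3-Flox livers and was at least 106-fold higher against 3 reads per METTL3-Flox liver. These neighbours differed from Mmp8 in which livers were high. Across the METTL3-HKD livers, Mmp13 had 65.4, 73.2, 2.17 and 36.1 FPKM, so that liver 1 did not stand apart and liver 3 was the low one. Mmp27, only 2910 bases from Mmp8, had 0.276 against 0.450 FPKM (adjusted p = 0.367, limma), Mmp7 had 1.14 against 1.15 FPKM (adjusted p = 0.911), and Mmp20 had no read. Mmp13 and Mmp10 each lost their call under 1 of 15 alternatives. Of the metalloproteinase and inhibitor genes other than Mmp8 and Mmp9, 5 of 17 tested were called higher and 0 lower. The fifth was Mmp25, a protease of the neutrophil membrane, with 196 reads in METTL3-HKD and 5 reads in METTL3-Flox livers, called in 12 of the 14 alternatives in which it was tested. Both Mmp10 and Mmp25 passed the minimum through their METTL3-HKD livers alone. With Mmp8 and Mmp9 included, 7 of 19 tested genes were called higher, or 5 calls without Mmp10 and Mmp25. Over all genes tested, the share called higher was 4.7%.

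Csf3r (ENSMUSG00000028859, chr4:126024550-126044440, plus strand) encodes the receptor through which G-CSF acts on neutrophils and their precursors. It had 15.1, 7.99, 7.56 and 9.50 FPKM in METTL3-HKD livers and 0.838, 1.17, 0.984 and 1.12 FPKM in METTL3-Flox livers. Relative to the mean, the spread within each group was the smallest of the mature-cell genes, liver 1 included. The mean was 10.04 ± 3.48 against 1.03 ± 0.147 FPKM (SD, n = 4 each), a log2 fold change of 3.12 (SE 0.216, adjusted p = 0.000511, limma), and 2.91 without METTL3-HKD liver 1. Of the 50-base stretches of its exons, 10.7% also occur in other annotated genes, and how reads there were counted is not given in the sources used here.

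Ly6g (ENSMUSG00000022582, chr15:75155240-75159126, plus strand) encodes the surface antigen recognised by the antibody most used to gate mouse neutrophils. It had 3.38, 0.919, 0.235 and 0.971 FPKM in METTL3-HKD livers, which came from 64, 16, 4 and 17 reads. In METTL3-Flox livers, only liver 1 had any reads (2 reads, 0.149 FPKM), and the other METTL3-Flox livers were listed at 0. The groups did not overlap, and METTL3-HKD liver 3 came close to METTL3-Flox liver 1. The ratio of the read rates was 41.4 (exact 95% interval 11.2 to 346, counting error only), and the fitted log2 fold change was 3.08 (SE 0.652, adjusted p = 0.0177, limma), or 2.51 without METTL3-HKD liver 1 (adjusted p = 0.0328). The call of Ly6g was kept in 12 of the 14 alternatives in which it was tested, the fewest of the 8 calls. It was lost with a pseudocount of 1 FPKM (1.04, adjusted p = 0.0624, limma) and without METTL3-Flox liver 3 (2.97, adjusted p = 0.0535). Ly6g shares 0.448% of its 50-base stretches with Ly6i and a predicted gene. Ly6i had 27 reads in METTL3-HKD and 2 reads in METTL3-Flox livers, a ratio of read rates of 11.1 (exact 95% interval 2.78 to 96.0). Ly6i was called higher (adjusted p = 0.0471, limma), a call kept in 4 of the 13 alternatives in which it was tested. Like Ly6g, it passed the minimum through its METTL3-HKD livers alone.

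Csf3 (ENSMUSG00000038067, chr11:98701263-98703629, plus strand) encodes G-CSF itself. It had 1.20, 0.345, 0.431 and 0.990 FPKM in METTL3-HKD livers, from 34, 9, 11 and 26 reads, and 0 reads in each METTL3-Flox liver. With 3 reads per METTL3-Flox liver as the upper limit that a count of 0 allows, METTL3-HKD livers held on average at least 5.36-fold higher Csf3. The fit gave a log2 fold change of 2.93 (SE 0.381, adjusted p = 0.00389, limma), which depends on the pseudocount and was 0.77 with a pseudocount of 1 FPKM (adjusted p = 0.0181), under the fold threshold. Livers 1 and 4 were high and livers 2 and 3 low, and liver 1 did not stand apart as it did for the mature-cell genes. The fitted value was 2.67 without METTL3-HKD liver 1. For S100a8, S100a9, Csf3r, Retnlg, Mmp8 and Mmp9, the exact permutation test of FPKM (two-sided) gave p = 0.0286, the smallest that 4 livers against 4 allow.

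**Figure D2:**
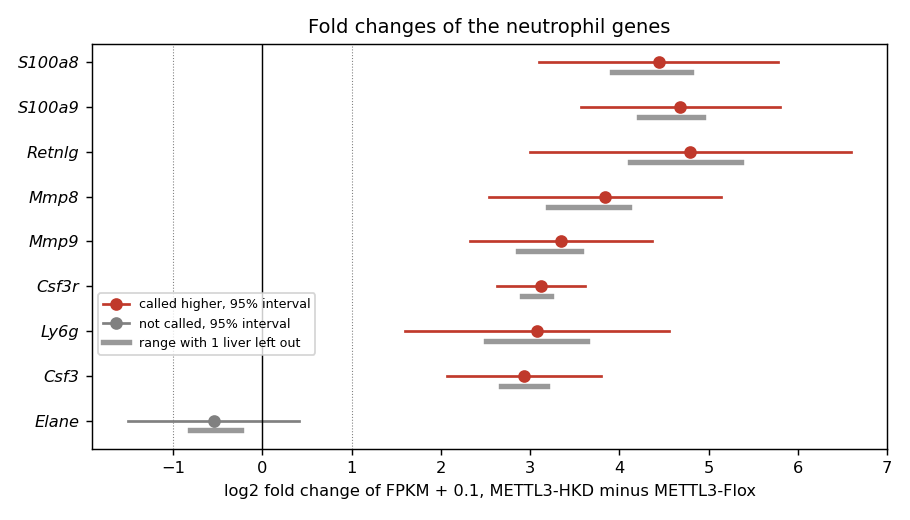
Log2 fold change of FPKM + 0.1, METTL3-HKD minus METTL3-Flox (x axis), for the 9 genes tested, with 95% intervals from limma and, below each, the range of the value when any 1 liver is left out (thick grey line). Dotted lines mark the fold threshold. The 8 genes called higher keep values above 2 with any liver left out, and the interval of Elane, from −1.50 to 0.41, spans 0.

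Elane and Mpo are the primary granule genes. Elane (ENSMUSG00000020125, chr10:79886247-79888215, plus strand) encodes neutrophil elastase. It had 0.354, 0.935, 0.563 and 1.31 FPKM in METTL3-HKD livers and 2.15, 0.755, 1.20 and 0.694 FPKM in METTL3-Flox livers. The groups overlapped, and METTL3-HKD liver 1, the highest for every mature-cell gene, was the lowest of all 8 livers for Elane. The mean was 0.791 ± 0.423 against 1.20 ± 0.670 FPKM (SD, n = 4 each), from 58 and 71 reads. The log2 fold change was −0.54 (SE 0.424, 95% interval −1.50 to 0.41, adjusted p = 0.414, limma), and the exact permutation test gave p = 0.371. The upper end of this interval lay below the lower ends of the intervals of S100a8, S100a9, Csf3r, Retnlg, Mmp8 and Mmp9, the lowest of which was 2.32 (Mmp9). Without METTL3-HKD liver 1, the value was −0.26 (adjusted p = 0.735, limma).

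Mpo (ENSMUSG00000009350, chr11:87793581-87804413, plus strand) encodes myeloperoxidase, whose protein is abundant in mature neutrophils although its gene is silent there. It had 1 read in METTL3-HKD liver 2, 1 read in METTL3-Flox liver 1 and 2 reads in METTL3-Flox liver 2, and 0 reads in the remaining livers. These were 0.0158 FPKM or less in METTL3-HKD and 0.0361 FPKM or less in METTL3-Flox livers, below the limit of 0.0436 to 0.0617 FPKM that a count of 0 allows in a single liver. No fold is given for such counts, and the exact permutation test gave p = 0.429. Of the exonic bases of Mpo, 512 are shared with Gm11505 on the opposite strand, and the strand setting of the counting is not given in the sources used here.

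The contrast can also be read within each liver, where scaling between libraries cancels. The S100a8 to Elane ratio was 1469, 124, 177 and 120 in METTL3-HKD livers 1 to 4 and 7.89, 12.6, 2.76 and 10.8 in METTL3-Flox livers. Even the lowest METTL3-HKD ratio was far above the highest METTL3-Flox ratio. METTL3-HKD liver 1, where Elane had only 7 reads, was again the extreme. The Csf3r to Elane ratio was 7.24 to 42.7 against 0.391 to 1.61, and the Mmp9 to Elane ratio was 3.80 to 47.1 against 0.232 to 0.859. Without METTL3-HKD liver 1, the ratios reached 177, 13.4 and 6.59 and still lay above all METTL3-Flox ratios. These ratios were compared after the values had been seen. They reuse the levels given above, in which the numerator genes were already separate between the groups. Their tests are therefore no second support for the contrast. The log2 ratios differed by 5.08 (S100a8), 3.86 (Csf3r) and 4.21 (Mmp9), each with p = 0.0286 in the exact permutation test, the smallest possible. Adjusted over the 7 ratios compared, each p was 0.0667 and did not pass 0.05. The ratios among mature-cell genes (S100a9 to S100a8, S100a8 to Csf3r, Retnlg to S100a8, Mmp8 to Mmp9) differed by at most 1.21 on the log2 scale, with exact permutation p from 0.0857 to 0.657.

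Other granule and maturation genes were counted by the stage that makes them, in lists chosen with earlier results of these data known. Over all genes tested, 4.7% were called higher and 1.52% lower. Of the 6 primary granule and promyelocyte genes, 2 passed the minimum for testing, 0 were higher and 1 was lower. The lower one was Prtn3, the proteinase 3 gene, which ends 3072 bases before Elane starts on chromosome 10. Prtn3 had 1.87, 3.25, 3.90 and 3.95 FPKM in METTL3-HKD livers and 23.6, 14.4, 15.1 and 5.49 FPKM in METTL3-Flox livers. Every METTL3-HKD liver lay below every METTL3-Flox liver, as for 9.95% of all genes tested, and the log2 fold change was −2.03 (SE 0.416, adjusted p = 0.0160, limma). The call was kept in 14 of 15 alternatives, with adjusted p from 0.00871 to 0.0506, and the value was −1.79 without METTL3-HKD liver 1. The serine protease genes Ctsg and Prss57 lay below 0.06 FPKM in every liver, and Ms4a3, a marker of granulocyte and monocyte precursors, had no read. Summed over METTL3-HKD and METTL3-Flox livers, Prtn3 had 418 and 1536 reads and Elane 58 and 71 reads. Mpo had 1 and 3 reads, and Ctsg 1 and 1. The primary granule genes were thus not present together, and which cells carried the mRNA of Prtn3 and Elane was not tested.

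Among 7 specific granule genes, 6 were tested and 3 were higher, beside 4.7% of all genes tested. Of these 3, Cd177 and Olfm4 passed the minimum through their METTL3-HKD livers alone. Chil3, which encodes a chitinase-like protein, had 37.2 against 1.93 FPKM (log2 fold change 4.19, adjusted p = 0.00389, limma). Without METTL3-HKD liver 1, the METTL3-HKD mean of Chil3 was 23.2 FPKM and the log2 fold change 3.74. Cd177, a surface glycoprotein of neutrophils, had 1.82 against 0.0236 FPKM, from 404 and 4 reads (adjusted p = 0.00710, limma), and its METTL3-HKD mean was 0.828 FPKM without liver 1. Olfm4, olfactomedin 4, had 134 and 3 reads, a ratio of read rates of 36.6 (exact 95% interval 12.3 to 180, counting error only). Its METTL3-HKD mean fell from 0.578 to 0.251 FPKM without liver 1, and its call (adjusted p = 0.0299, limma) was kept in 8 of the 14 alternatives in which it was tested. The genes not called did not share a direction. Lcn2 (lipocalin 2), which hepatocytes also make in the acute phase, had 733 against 1174 FPKM (−0.51, adjusted p = 0.372, limma). Ngp, neutrophilic granule protein, had 8.71 FPKM in METTL3-HKD liver 1 and 0.408 to 0.528 FPKM in the other METTL3-HKD livers, against 0 to 0.576 FPKM (adjusted p = 0.107, limma; 0.177 without METTL3-HKD liver 1). Camp, cathelicidin, had 0.198 against 0.112 FPKM (adjusted p = 0.981, limma), but without METTL3-HKD liver 1 its METTL3-HKD mean was 0.0238 FPKM, the lower of the groups. Ltf, lactoferrin, was below the minimum.

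Of 18 other genes of mature neutrophils, all were tested, 13 were higher and 0 were lower, with a median log2 fold change of 2.38 over the list. Over all genes tested, 4.7% were higher and 1.52% lower, with a median of −0.00. Of the 13 calls, 12 remain without Mmp25, which passed the minimum through its METTL3-HKD livers alone. The largest changes were those of Stfa2l1, a stefin (5.20, adjusted p = 0.00378, limma), Clec4d, a C-type lectin receptor (4.96, adjusted p = 0.00378), Trem1, an activating receptor of myeloid cells (4.79, adjusted p = 0.00190) and Asprv1, a retroviral-like protease (4.26, adjusted p = 0.00230). Trem1 had 14.8, 3.41, 2.57 and 6.43 FPKM in METTL3-HKD livers and 0.0439 to 0.145 FPKM in METTL3-Flox livers. Without METTL3-HKD liver 1, the values were 4.78 for Stfa2l1, 4.50 for Clec4d, 4.31 for Trem1 and 3.81 for Asprv1. Stfa2l1 had 3 reads in METTL3-Flox livers, and the ratio of its read rates was 59.6 (exact 95% interval 20.1 to 291, counting error only). The 5 genes not called were the formyl peptide receptors Fpr1 (5.92 against 4.69 FPKM, adjusted p = 0.725, limma) and Fpr2 (5.45 against 1.91 FPKM, adjusted p = 0.0889), Ifitm6, Stfa2 and BC100530. Without METTL3-HKD liver 1, the count of genes called was again 13 of this list and 3 of the specific granule list.

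**Figure D3:**
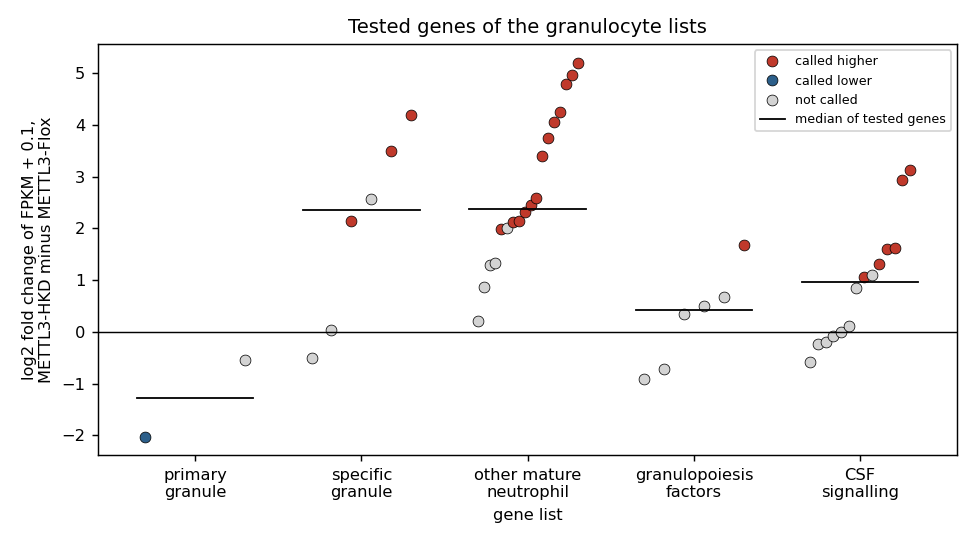
Log2 fold change of FPKM + 0.1, METTL3-HKD minus METTL3-Flox (y axis), of every tested gene of the lists (x axis), coloured by call, with a line at the median of each list. The primary granule list includes Elane and the CSF list includes Csf3 and Csf3r. Of the primary granule genes, 1 is lower and 0 are higher, while 13 of 18 genes of mature neutrophils are higher. Over all genes tested, 4.7% are higher and 1.52% lower.

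Of 7 transcription factors of granulocyte development, 6 were tested and 1, Runx1, a factor of blood cell development, was higher (0.700 against 0.138 FPKM, log2 fold change 1.67, adjusted p = 0.0160, limma). The share over all genes tested was 4.7%. Cebpa, which acts at the promyelocyte stage and is also a major hepatocyte factor, had 67.7 to 117 FPKM in METTL3-HKD and 169 to 196 FPKM in METTL3-Flox livers. Its log2 fold change of −0.91 had an adjusted p of 0.0115 (limma) but was under the fold threshold. Cebpe, the factor of the specific granule genes, had 2.45 against 4.13 FPKM (adjusted p = 0.0752, limma). Cebpb, Cebpd and Spi1, which encodes PU.1, were not called, and Gfi1 was below the minimum.

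Beyond Csf3 and Csf3r, the list of colony-stimulating factors, their receptors and JAK-STAT genes held 14 genes, of which 12 were tested, 4 were higher and 0 were lower. The shares over all genes tested were 4.7% higher and 1.52% lower. Csf2rb and Csf2rb2, the beta chains of the GM-CSF, IL-3 and IL-5 receptors, rose by 1.61 and 1.60 on the log2 scale (adjusted p = 0.0206 and 0.0188, limma), or by 1.26 and 1.27 without METTL3-HKD liver 1. Csf2ra, the alpha chain of the GM-CSF receptor, rose by 1.32 (adjusted p = 0.0400, limma), which was called in only 3 of 15 alternatives and was 0.92 without METTL3-HKD liver 1, under the fold threshold. The macrophage growth factor Csf1 rose by 1.07 (adjusted p = 0.0117, limma) and was the only ligand of the list besides Csf3 to be called. The calls of Csf2rb, Csf2rb2 and Csf1 were kept in 12, 13 and 12 of 15 alternatives. The receptor of Csf1, Csf1r, had 9.99 against 14.4 FPKM (adjusted p = 0.140, limma). The other ligands Csf2 and Il3 were below the minimum, Il3 with no read. Stat3, through which the G-CSF receptor signals, had 27.2 FPKM in both groups (adjusted p = 0.990, limma). Its target Socs3, an inhibitor of the same receptor, had 47.7 against 21.6 FPKM with overlapping groups (adjusted p = 0.0643). Csf3r (3.12) and Csf3 (2.93) had the largest fitted changes of this list in the main fit. The rank of Csf3 depends on the pseudocount, and with 1 FPKM its value was 0.77. Csf3 also passed the minimum through its METTL3-HKD livers alone. Over all 16 genes, 6 were called, or 5 without Csf3. The count of 6 fell to 3 without METTL3-Flox liver 2, 3 or 4.

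Within METTL3-HKD, the livers took the same order for all 7 mature-cell genes: liver 1 was the highest, liver 4 the next, then liver 2, and liver 3 the lowest. Liver 1 exceeded the mean of the other METTL3-HKD livers by 1.81 times for Csf3r, 3.50 times for S100a9 and 6.38 times for Retnlg. Liver 1 was also the highest for all 13 genes of the mature neutrophil list and for all 3 specific granule genes called higher. Over the 8 livers, deviations from the group means correlated between mature-cell genes with r from 0.395 to 0.985 (median 0.819 over 21 pairs). For Elane with each of the mature-cell genes, r was −0.646 to 0.112 (median −0.233). These correlations describe genes that share the same libraries and their scaling.

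**Figure D4:**
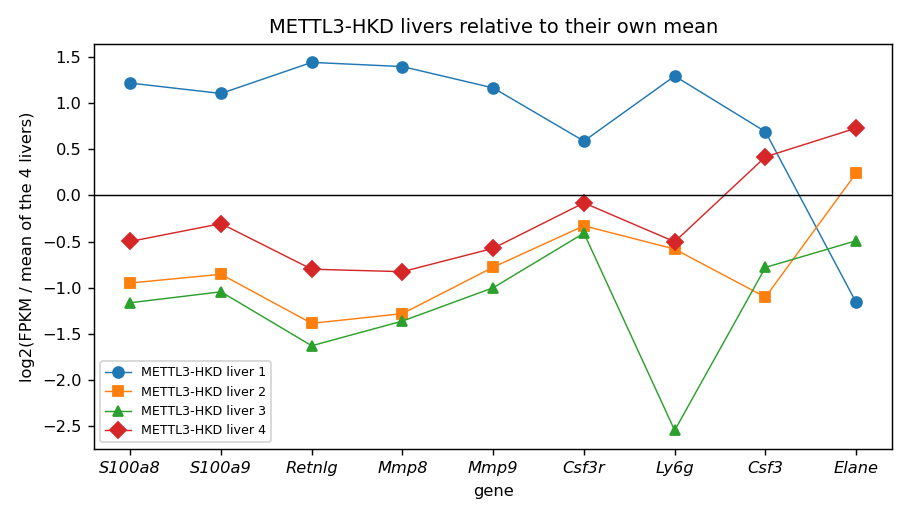
Level of each gene in METTL3-HKD livers 1 to 4 relative to the mean of these livers (y axis, log2 of the FPKM ratio), with lines joining the genes of one liver. Liver 1 is the highest from S100a8 to Csf3 and the lowest for Elane, and Mpo is left out because it had 1 read.

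By the likeness of pattern to the mean of S100a8 and S100a9 over the 8 livers, on the log2(FPKM + 0.1) scale, the nearest of 10688 genes averaging 1 FPKM or more were Asprv1 (r = 0.998), Cxcr2 (0.992), Il1r2 (0.992), Cpe (0.991), Fxyd5 (0.990), Thbd (0.990), Ctps (0.989), Arg2 (0.988), Il1rn (0.988) and Trem1 (0.988). The value r was taken over both genotypes together, so a shared difference between genotypes raises it, and each of these genes was called higher. The 4 of them on the mature neutrophil list are the protease Asprv1, the chemokine receptor Cxcr2, the interleukin-1 decoy receptor Il1r2 and Trem1. Cpe, Fxyd5, Thbd, Ctps, Arg2 and Il1rn are not on that list. Cxcr2 had 14.3, 4.05, 3.52 and 8.33 FPKM in METTL3-HKD livers and 0.108 to 0.531 FPKM in METTL3-Flox livers, in the liver order of the calprotectin genes within METTL3-HKD.

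Markers of other cell types moved as well, and their part in the results above was not tested. Beside their counts stand 4.7% higher and 1.52% lower over all genes tested. Of 5 monocyte markers, Ccr2 (log2 fold change 2.26, or 1.97 without METTL3-HKD liver 1) and F13a1 (3.69, or 3.27) were higher, and the summed level of the list was 11.5 to 36.4 FPKM in METTL3-HKD and 10.6 to 22.3 FPKM in METTL3-Flox livers. Of 7 Kupffer cell markers, Clec4f (−1.31), Timd4 (−1.30) and Cd5l (−1.37) were lower, with sums of 89.5 to 186 against 185 to 460 FPKM. These 3 calls were kept in 5, 7 and 5 of 15 alternatives, and those of Clec4f and Cd5l were lost without METTL3-HKD liver 1. Of 6 erythroid markers, 4 were tested and the haemoglobin genes Hbb-bt (3.04) and Hba-a1 (3.20), mRNA carried by young red cells in blood, were higher, with sums of 86.2 to 218 against 32.5 to 69.7 FPKM. The other tested erythroid markers, Alas2, the haem synthesis enzyme of red cell precursors (16.1 against 28.9 FPKM, adjusted p = 0.103, limma), and Klf1, their transcription factor (1.05 against 1.92 FPKM, adjusted p = 0.319), had lower means in METTL3-HKD. Of 4 platelet markers, Ppbp (1.82) was higher, with sums of 3.10 to 10.3 against 1.07 to 3.32 FPKM, a call kept in 9 of 14 alternatives and lost without METTL3-HKD liver 1 (adjusted p = 0.0596, limma). METTL3-HKD liver 1 was also the highest for the monocyte markers called, at 2.69 times the next METTL3-HKD liver for F13a1 and 1.88 times for Ccr2, beside 2.66 times for S100a9 and 1.59 times for Csf3r. It was at 0.909 times the next for Plac8, the most abundant monocyte marker, and at 1.26 times for Hba-a1. The summed hepatocyte markers were lower in METTL3-HKD liver 1, at 21272 FPKM, than in any other of the 8 livers. None of the hepatocyte (0 of 6), eosinophil (0 of 2 tested) or T, B and NK cell markers (0 of 3 tested) was called, no mast cell or basophil marker reached the minimum, and the eosinophil peroxidase gene Epx had no read.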

How the data were processed

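Liver mRNA of 4 METTL3-HKD and 4 METTL3-Flox mice was analysed, with groups taken from the sample labels and all 8 libraries used. The authors deposited FPKM for 54532 genes on GRCm38 (mm10, per the submitters' processing notes), with a gene length (another unit, in bases) for each gene, and libraries were made with a SMARTer mRNA-Seq kit per the labels. Aligner, counting, annotation release and strand setting are not given in the sources used here. Multiplied by gene length and an effective library size, 100% of FPKM above 0 gave whole reads within 0.02 reads. These rebuilt reads gave depths, floors of 3 reads and the voom alternative. Intervals and floors cover counting error.

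All genes averaging 0.1 FPKM or more were compared on log2(FPKM + 0.1), where folds of low genes are understated, with limma 3.58.1 (lmFit, eBayes with trend) in R 4.3.3, with p-values adjusted by Benjamini-Hochberg. Exact permutation tests of single genes ran over all 70 arrangements in Python 3.11.15 (scipy 1.17.1). The method was tested on simulated data. The 10 genes and all lists were chosen with earlier results of these data known. Named are the 10 genes, the called genes of each list with the largest changes, the most abundant of those not called, and the 10 genes nearest in pattern to S100a8 and S100a9. Further list genes named beside counts, the within-liver ratios and the neighbours of Mmp8 and Elane were chosen after their values were seen. Coordinates and overlaps were compared with GENCODE M21, in which all 10 genes have the same coordinates. Promoters came from RefSeq (GRCm38.p6).

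Alternatives were a pseudocount of 1 FPKM, a minimum of 1 FPKM or none, no trend, scaling to reads on genes, voom, a replicate block and omission of each liver in turn, 15 in all. No batch is named in the labels, and p-values measure the spread between these mice.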

Additional observations from a re-analysis of the deposited data

Results flagged for a closer look

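Values of the 10 genes in each group of 4 livers, 20 groups in all, were searched for a single liver far from the others. Dixon's test at 95% was used, which chance passes in about 1 of 20 groups of independent, normally distributed values, and 6 groups had such a liver. The genes share the same livers, so their groups are not independent and the 6 cannot be set against that rate. In METTL3-HKD, liver 1 was far above the others for S100a8 (519.4 FPKM), Retnlg (175.4 FPKM), Mmp8 (18.88 FPKM) and Mmp9 (16.66 FPKM), the gap to the next liver being 0.861 to 0.922 of the range of the group. All 4 genes kept their calls without this liver. The remaining cases rest on single reads or pairs of reads beside livers at 0. They are Ly6g in METTL3-Flox, with 0.1494 FPKM (2 reads) in liver 1, and Mpo in METTL3-HKD, with 0.0158 FPKM (1 read) in liver 2.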

How the results depend on the processing

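The number of genes called higher was 6 to 8 of 10 over the 15 alternatives. S100a8, S100a9, Csf3r, Retnlg, Mmp8 and Mmp9 were called in all 15, with log2 fold changes from 2.24 (Mmp9) to 5.36 (Retnlg), and none of the 9 genes tested changed direction. Mpo was fitted only without a minimum (−0.13, adjusted p = 0.586, limma). With a pseudocount of 1 FPKM, Csf3 was 0.77 and Ly6g 1.04 on the log2 scale and neither was called, the list of granulopoiesis factors had 0 calls, and the CSF list 3. With a minimum of 1 FPKM, Csf3, Ly6g and Elane were not tested, and the granulopoiesis factors had 0 calls and the specific granule list 1. Leaving out 1 liver at a time gave 2.51 to 3.63 for Ly6g (not called only without METTL3-Flox liver 3, 2.97) and 3 to 8 calls in the CSF list. Scaling to reads on genes moved the median over all genes to 0.20 on the log2 scale. It changed the calls over all genes from 782 higher and 253 lower to 1044 and 133, and the 8 genes stayed called. Other counts over all genes were 317 and 88 with a pseudocount of 1 FPKM, 450 and 183 with a minimum of 1 FPKM, 685 and 163 with none, and 492 to 960 and 94 to 341 with 1 liver left out.

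Whether the replicate numbers pair the livers is not given in the sources used here. Deviations of livers with the same number correlated with r of 0.07, −0.08, −0.01 and −0.03. For livers of different numbers, r was −0.07 to 0.09. Such values cannot decide the question, because a pairing with a small effect could give them too. With the replicate block, 8 of the 10 genes were called higher and 0 lower, and counts over all genes were 616 and 200. Elane had an adjusted p of 0.523 (limma). Depth limited Mpo, Ly6g and Csf3, with 4, 103 and 80 reads over all 8 livers. It limited Elane as well, with 58 reads in METTL3-HKD and 71 reads in METTL3-Flox livers.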
